A study of Mus musculus with 9 samples.

Results

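The genes described here are 10 that encode NF-kB subunits and feedback regulators of NF-kB: Nfkbia, Nfkbie, Nfkbiz, Nfkbid, Bcl3, Tnfaip3, Mir155hg, Rel, Nfkb1 and Nfkb2. They were taken by symbol from the 42454 genes of the deposited table, all 10 were present, and all 10 passed the filter on low values that left 14404 genes for testing. Expression was measured by RNA sequencing in macrophages sorted as Ly6C low and MHC-II+ from the colon lamina propria, the tissue that underlies the epithelium, of mice aged 6 weeks. The groups were gp91phox-/-, p47phox-/- and WT mice, with 3 libraries each. Both knockouts lack a subunit of the phagocyte NADPH oxidase, which makes superoxide. The catalytic membrane subunit gp91phox is encoded by Cybb, and the cytosolic organiser p47phox by Ncf1. The knockout alleles, the strain background, the sex and the number of mice behind a library are not given in the labels. The loss is not stated to be limited to macrophages, so an effect in the sorted cells and an effect of other cells of the animal cannot be told apart. By its title, the series asks what reactive oxygen species do as macrophages develop in the intestine.

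NF-kB transcription factors are dimers of Rel-family subunits. In resting cells IkB proteins hold them in the cytoplasm, and signals from Toll-like and cytokine receptors trigger IkB phosphorylation by the IKK complex and IkB degradation, which frees the dimers to enter the nucleus. Many of the genes they then induce encode their own inhibitors, among them IkB-alpha (Nfkbia) and the ubiquitin-editing enzyme A20 (Tnfaip3), so transcripts of these inhibitors are commonly read as markers of recent NF-kB activity. Gut macrophages are known for muted cytokine responses to the bacteria around them, and A20 and the IkB family are among the brakes described there.

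Depth was 31141107 to 52797368 gene-assigned reads per library. At least 1 read fell on 18115 to 18760 genes in gp91phox-/-, and in p47phox-/- on 17754 (replicate 1), 14323 and 14268 genes, against 15825 to 17280 genes in WT. Because p47phox-/- replicates 2 and 3 stand apart in this count, the fit was repeated without them. Counts of genes called, and results for some of the genes described here, are given with and without them. For genes of the other lists no separate value without these replicates is given, so whether each of those calls holds there is not shown. Ncf1 was listed at 2718, 3733 and 3133 normalized counts in p47phox-/- libraries, against 10066, 8990 and 10815 in WT, a log2 fold change of -1.65 (SE 0.14, adjusted p = 0.000348). All 1362 symbols of chromosome X, Cybb included, were listed at 0 in all 9 libraries, so the gp91phox-/- label could not be checked on its own gene. Macrophage genes were high in every library: Csf1r, the receptor for macrophage colony-stimulating factor, had 98785 to 128474 normalized counts in gp91phox-/-, 101332 to 113990 in p47phox-/- and 82181 to 107239 in WT.

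The stretches that follow lie within the 250 bases before a RefSeq gene start (build GRCm38.p6) and are shown because they hold the letters GGGNNTTNCC (N is any base) on either strand, a form of the classical NF-kB motif whose reverse complement is GGNAANNCCC. The match is in capitals, and each is written 5′ to 3′ on the strand of the gene.
Nfkbia, chr12:55492648-55492701, minus strand, match 29 to 20 bases before the start: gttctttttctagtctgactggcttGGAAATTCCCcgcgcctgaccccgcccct
Tnfaip3, chr10:19015411-19015447, minus strand, match 12 to 3 bases before the start: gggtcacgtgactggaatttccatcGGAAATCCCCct
Nfkbid, chr7:30422156-30422214, plus strand, match 226 to 217 bases before an alternative start: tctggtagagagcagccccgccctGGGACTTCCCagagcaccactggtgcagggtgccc
Rel, chr11:23771026-23771086, minus strand, a pair of matches that share 9 bases, 92 to 82 bases before the start: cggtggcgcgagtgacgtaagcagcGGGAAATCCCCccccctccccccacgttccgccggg
Nfkb2, chr19:46304688-46304717, plus strand, match 39 to 30 bases before the start: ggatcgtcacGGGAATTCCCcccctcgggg
Nfkb2, chr19:46305695-46305724, plus strand, match 225 to 216 bases before an alternative start: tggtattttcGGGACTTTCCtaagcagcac
Some starts differ between RefSeq and GENCODE, so the stretches of Tnfaip3, Nfkbid and Nfkb2 lie inside the GENCODE gene bounds given with each gene, and both Nfkb2 stretches overlap annotated Nfkb2 exons. The Nfkb2 match GGGAATTCCC reads the same on both strands. Nfkb2 held further matches in the last 11 bases before the start of its first window, which overlap each other and are not printed. Of the 10 genes, 8 had at least 1 window of 250 bases before a start, and 5 of these 8 (62.5%) held the motif, against 1274 of 27025 genes (4.71%) and 1350 of 32851 windows (4.11%) in the whole table. Nfkbie, Bcl3 and Mir155hg held no match in their windows, which says only that these letters are not there. The Mir155hg window (chr16:84712773-84713022) lies well inside the GENCODE gene, whose first base is at 84703167. The bases before that GENCODE start were not searched, and Mir155hg is counted among the 8. A match is a string of letters and not a measured binding site.

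The genes that differed from WT were those of A20, the miR-155 host transcript and some IkB family proteins, both cytoplasmic inhibitors and nuclear modulators. In gp91phox-/- versus WT, 6 of the 10 genes were higher (Nfkbia, Nfkbie, Nfkbiz, Nfkbid, Tnfaip3 and Mir155hg) and 0 were lower by limma at a Benjamini-Hochberg adjusted p under 0.05, beside 7.05% of all 14404 genes called, 2.53% higher and 4.53% lower. In p47phox-/- versus WT, 2 of 10 were higher (Nfkbia and Nfkbid) and 0 lower, beside 1.12% of all genes called, 0.625% higher and 0.5% lower. The median log2 fold change of the 10 was 0.62 in gp91phox-/- versus WT, where the median of all genes was 0.01, and 0.44 in p47phox-/- versus WT, where that of all genes was -0.02. Both comparisons use the same 3 WT libraries, so their values stand side by side and are not independent of each other. Called members were higher in the knockout in 3 of 3 libraries, with no overlap with WT. A call makes such separation likely, so it adds no support, and the share of all genes without overlap was not computed. Leaving out p47phox-/- replicates 2 and 3 keeps 1 p47phox-/- library, which is then assumed to vary like the libraries of the other groups. In that fit 0 of 10 were called in p47phox-/- versus WT, with a log2 fold change of 0.88 for Nfkbia (adjusted p = 0.252, where 21 alternative analyses ranged from 8.99e-06 to 0.252) and 0.50 for Nfkbid (adjusted p = 0.436, range 0.000875 to 0.436). The count was also 0 of 10 without p47phox-/- replicate 3 or without WT replicate 3. Values are normalized counts (reads divided by a size factor of the library) throughout, and fold changes are on the log2(normalized count + 1) scale.

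**Figure D1:**
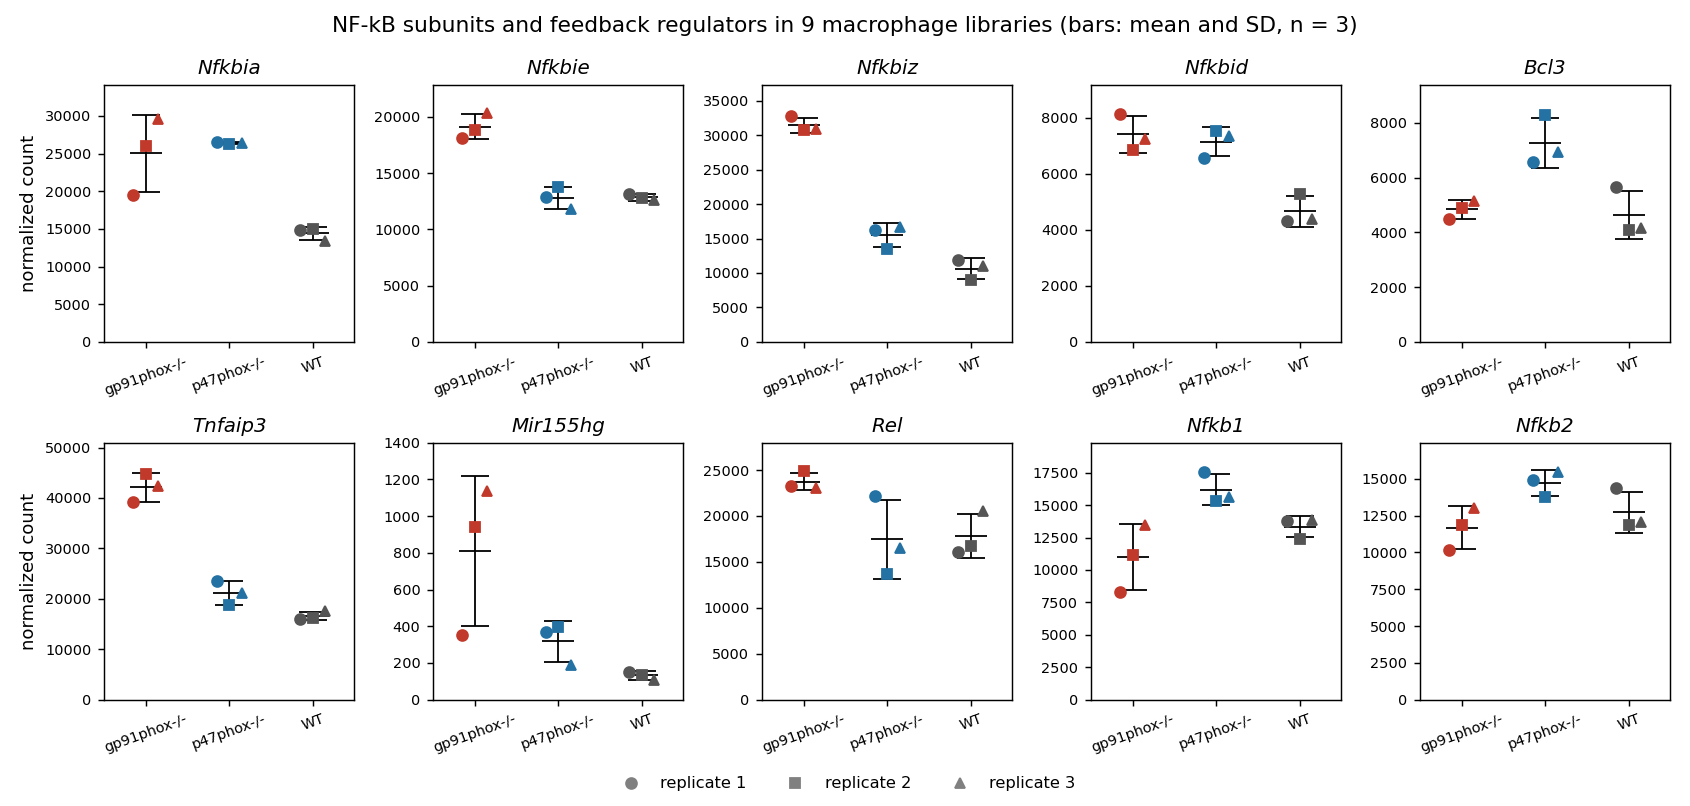
Normalized counts (vertical axes, from 0) of the 10 genes in each of the 9 libraries, grouped by genotype, with the marker shape giving the replicate number and the bars the mean and SD (n = 3). Nfkbiz and Tnfaip3 separate the gp91phox-/- libraries from the other 6, Nfkbia and Nfkbid separate both knockouts from WT, and Nfkb1 and Nfkb2 show no gp91phox-/- library above the WT maximum.

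Nfkbia (chr12:55489410-55492647), whose product IkB-alpha is the main cytoplasmic inhibitor of NF-kB and is resynthesised within each round of activation, was higher in both knockouts. Its normalized count was 19548, 25990 and 29639 in gp91phox-/- libraries and 26539, 26314 and 26450 in p47phox-/- libraries, against 14829, 15009 and 13434 in WT. Every knockout library lay above every WT library, and the gp91phox-/- libraries were spread (SD 5110) while the p47phox-/- libraries were close together (SD 113). The fold change was 1.71 in gp91phox-/- (log2 0.78, SE 0.15, adjusted p = 0.00905) and 1.83 in p47phox-/- (log2 0.88, SE 0.15, adjusted p = 0.0178). The gp91phox-/- minus p47phox-/- difference was -0.10 on the log2 scale, with a 95% interval from -0.43 to 0.24.

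Nfkbie (chr17:45555703-45563169) encodes IkB-epsilon, another cytoplasmic inhibitor, which acts more slowly and preferentially on dimers with RelA or c-Rel. Its count was 18160 (replicate 1), 18868 and 20341 in gp91phox-/- libraries and 12907, 13751 and 11822 in p47phox-/- libraries, against 13180, 12821 and 12575 in WT. The gp91phox-/- libraries stood above all others, and the p47phox-/- and WT libraries overlapped. It was 1.49-fold higher in gp91phox-/- than in WT (log2 0.57, SE 0.12, adjusted p = 0.0111), a call lost without gp91phox-/- replicate 3 (log2 0.53, adjusted p = 0.056, range over the alternatives 1.48e-06 to 0.056). In p47phox-/- versus WT the log2 difference was -0.01 (95% interval -0.26 to 0.25).

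The nuclear members of the IkB family bind NF-kB on DNA and modulate transcription instead of holding dimers in the cytoplasm. Nfkbiz (chr16:55811375-55838899) encodes IkB-zeta, a coactivator needed for secondary response genes such as Il6 and Lcn2. Its count was 32699, 30798 and 30815 in gp91phox-/- libraries and 16196, 13488 and 16701 in p47phox-/- libraries, against 11890, 8923 and 11000 in WT. The 3 genotypes did not overlap. Nfkbiz was 2.98-fold higher in gp91phox-/- than in WT (log2 1.58, SE 0.14, adjusted p = 3.33e-05). Its log2 difference of 0.55 in p47phox-/- versus WT missed the threshold (95% interval 0.24 to 0.86, adjusted p = 0.0916).

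Nfkbid (chr7:30421732-30428746) encodes the nuclear protein IkB-NS, which restrains part of the cytokine response of gut macrophages. The gene had 8143, 6856 and 7256 normalized counts in gp91phox-/- and 6583, 7543 and 7338 in p47phox-/-, against 4308, 5286 and 4392 in WT. All 6 knockout libraries lay above all WT libraries, while the knockouts overlapped. It was 1.59-fold higher in gp91phox-/- (log2 0.67, SE 0.13, adjusted p = 0.00732) and 1.54-fold higher in p47phox-/- (log2 0.62, SE 0.13, adjusted p = 0.0398). The p47phox-/- call was kept in 9 of 21 alternatives and lost in the rest, among them the replicate block (adjusted p = 0.0759), edgeR and the fit of only these groups.

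Bcl3 (chr7:19808462-19822770), a nuclear IkB protein that binds p50 and p52 homodimers, showed a different pattern. It had 4475, 4903 and 5138 normalized counts in gp91phox-/- and 6574, 8308 and 6924 in p47phox-/-, against 5648, 4099 and 4175 in WT. The p47phox-/- libraries were the highest and overlapped neither other group, whereas the gp91phox-/- and WT libraries overlapped. The log2 difference was 0.07 in gp91phox-/- versus WT (95% interval -0.25 to 0.40) and 0.66 in p47phox-/- versus WT (adjusted p = 0.061), and neither passed the test. Without WT replicate 1, the highest WT library, the p47phox-/- difference was 0.81 (adjusted p = 0.0394, range over the alternatives 0.00553 to 0.501). Of the Bcl3 exon length, 161 bp (6.51%) overlap an antisense gene, and since the strand setting of the counting is not given, reads there cannot be assigned to either gene.

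Tnfaip3 (chr10:19000910-19015657) encodes A20, which removes and adds ubiquitin chains on signalling proteins upstream of IKK and so ends NF-kB activation. Its count was 39110, 44717 and 42426 in gp91phox-/- libraries and 23479, 18814 and 21119 in p47phox-/- libraries, against 16058, 16269 and 17541 in WT. The 3 genotypes did not overlap, with the gp91phox-/- libraries far above the rest. Tnfaip3 was 2.53-fold higher in gp91phox-/- than in WT (log2 1.34, SE 0.13, adjusted p = 6.1e-05). In p47phox-/- versus WT the log2 difference was 0.34 (95% interval 0.06 to 0.63, adjusted p = 0.242).

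Mir155hg (chr16:84703167-84715245) is the host transcript of miR-155, a microRNA induced by Toll-like receptors through NF-kB that represses inhibitors such as SOCS1 and SHIP1. RefSeq (GRCm38.p6) gives the mature products from this locus, shown with the seed (bases 2 to 8) in capitals because the miR-155 targets described next were listed for the 5p arm. The arms have different seeds.
mmu-miR-155-5p, chr16:84714143-84714165: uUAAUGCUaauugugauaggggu
mmu-miR-155-3p, chr16:84714182-84714202: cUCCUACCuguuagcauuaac
The mature microRNA was not measured, and the separate entry Mir155 was listed at 0 in all 9 libraries. Mir155hg had 350.3 (replicate 1), 941 and 1136 normalized counts in gp91phox-/- and 368, 396 and 186 in p47phox-/-, against 152, 137 and 106 in WT. Every knockout library lay above every WT library, but gp91phox-/- replicate 1 lay among the p47phox-/- libraries. The fold change was 5.51 in gp91phox-/- versus WT (log2 2.46, SE 0.41, adjusted p = 0.00335), the greatest of the 10 genes with the widest error, and 2.30 in p47phox-/- versus WT (log2 1.20, 95% interval 0.31 to 2.10, adjusted p = 0.19).

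Of 14 listed miR-155 targets, all tested, 1 was higher and 1 lower in gp91phox-/- versus WT (2.53% and 4.53% of all genes), with a median log2 fold change of 0.11. Counts this small cannot be set apart from those shares. Socs1, a suppressor of cytokine signalling, had 369, 942 and 869 normalized counts in gp91phox-/- and 313, 245 and 245 in WT (log2 1.33, adjusted p = 0.0355, kept in 14 of 21 alternatives). Gp91phox-/- replicate 1 was the lowest of its group for Socs1 as for Mir155hg. Ets1, a transcription factor of lymphocytes, had 580, 1604 and 594 in gp91phox-/- and 3078, 6355 and 4498 in WT (log2 -2.44, adjusted p = 0.00124). In p47phox-/- versus WT 0 of the 14 were higher and 1 was lower, Jarid2, with 2665, 1848 and 2165 normalized counts in p47phox-/- against 3200.3, 3924 and 3556 in WT (log2 -0.69, adjusted p = 0.0472, kept in 7 of 21 alternatives). The list median there was -0.05, and 0.625% of all genes were higher and 0.5% lower.

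None of the 3 subunit genes among the 10 was called against WT. Rel (chr11:23736847-23770970) encodes c-Rel, a subunit with a transactivation domain that drives Il12b and Il23a in myeloid cells. The gene had 23311, 24861 and 23074 normalized counts in gp91phox-/- and 22167, 13698 and 16501 in p47phox-/-, against 16116, 16731 and 20567 in WT. The gp91phox-/- libraries lay above all others, while p47phox-/- spread across the WT range. The log2 differences from WT were 0.42 in gp91phox-/- (95% interval 0.05 to 0.80, adjusted p = 0.175) and -0.05 in p47phox-/- (95% interval -0.43 to 0.33), and neither passed the test.

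Nfkb1 (chr3:135584655-135691547) encodes p105, which is cut to the DNA-binding subunit p50 and as a precursor also acts as an inhibitor. Its count was 8327, 11188 and 13468 in gp91phox-/- libraries and 17567, 15330 and 15659 in p47phox-/- libraries, against 13781, 12387 and 13838 in WT. The gp91phox-/- libraries were spread below and into the WT range, and the p47phox-/- libraries lay above both. The log2 differences from WT were -0.30 in gp91phox-/- (95% interval -0.66 to 0.05) and 0.28 in p47phox-/- (95% interval -0.08 to 0.64), and neither passed.

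Nfkb2 (chr19:46304320-46312385) encodes p100, the precursor of p52 in the non-canonical pathway and also an IkB-like inhibitor. The gene had 10174, 11891 and 13025 normalized counts in gp91phox-/- and 14952, 13784 and 15489 in p47phox-/-, against 14356, 11840 and 12058 in WT. All groups but the 2 knockouts overlapped. The log2 differences from WT were -0.13 in gp91phox-/- (95% interval -0.42 to 0.17) and 0.21 in p47phox-/- (95% interval -0.08 to 0.51). Of its exon length, 830 bp (18.1%) overlap antisense genes, with the same limit as for Bcl3.

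The remaining subunit genes were measured beside them. Rela, whose product p65 is the main transactivating partner of p50, had 5947, 6892 and 7023 normalized counts in gp91phox-/- and 7345, 7148 and 7992 in p47phox-/-, against 6749, 5940.3 and 5174 in WT, with log2 differences of 0.16 and 0.34 from WT that did not pass. Relb, the partner of p52, had 4633, 5249 and 4859 in gp91phox-/- and 6088, 7590.1 and 6829 in p47phox-/-, against 5860.2, 4874 and 4741 in WT. Neither was called against WT. With Nfkbib, Nfkbil1 and Ankrd42, a list of 5 other subunit and IkB genes had 0 called in either comparison with WT.

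**Figure D2:**
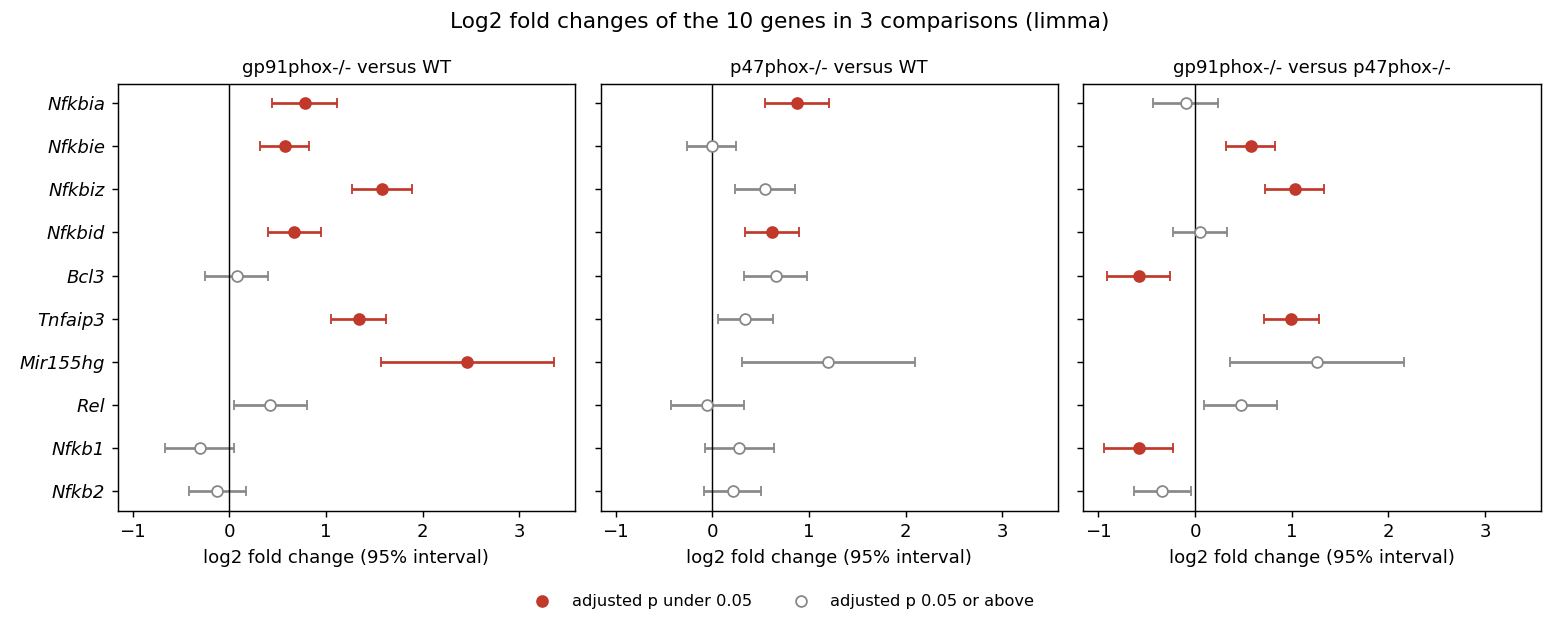
Log2 fold change with its 95% interval (horizontal axes) of each of the 10 genes in gp91phox-/- versus WT, p47phox-/- versus WT and gp91phox-/- versus p47phox-/-, with filled red points for an adjusted p under 0.05. In the panel of gp91phox-/- versus WT 6 points are filled, all above 0, and in the panel of gp91phox-/- versus p47phox-/- 3 filled points lie above 0 and 2 below.

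The knockouts also differed from each other, and this contrast is the test of whether their effects differ. Of the 10 genes, 3 were higher (Nfkbiz, Nfkbie, Tnfaip3) and 2 lower (Nfkb1, Bcl3) in gp91phox-/- versus p47phox-/-, beside 9.93% of all genes called, 3.97% higher and 5.96% lower. Over all genes 572 were higher and 858 lower. TMM scaling turned this split to 879 higher and 707 lower. Nfkbiz was 2.04-fold higher in gp91phox-/- than in p47phox-/- (log2 1.03, SE 0.14, adjusted p = 0.000897) and Tnfaip3 2.00-fold (log2 1.00, SE 0.13, adjusted p = 0.000679), and both calls held in 21 of 21 alternative analyses. Nfkbie was 1.49-fold higher (log2 0.58, SE 0.12, adjusted p = 0.00885), a call kept in 20 of 21 and lost without p47phox-/- replicates 2 and 3. Nfkb1 (log2 -0.58, SE 0.16, adjusted p = 0.0429) and Bcl3 (log2 -0.58, SE 0.15, adjusted p = 0.0295) were lower, calls kept in only 5 and 11 of 21. TMM scaling ended both, at log2 -0.49 for each, and without p47phox-/- replicates 2 and 3 only Nfkbiz and Tnfaip3 were called, 2 of the 10.

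The other contrasts between the knockouts did not pass. Mir155hg had a log2 difference of 1.26 (95% interval 0.37 to 2.16, adjusted p = 0.0744), and 1.78 without gp91phox-/- replicate 1 (adjusted p = 0.0096, range over the alternatives 0.00481 to 0.402). Rel differed by 0.47 (95% interval 0.10 to 0.85, adjusted p = 0.106), and by 0.66 without p47phox-/- replicate 1 (adjusted p = 0.0238, range over the alternatives 0.0238 to 0.836). Nfkbid differed by 0.05 (95% interval -0.23 to 0.33). Among the other subunit genes, Relb (log2 -0.47, adjusted p = 0.0406) and Nfkbib, which encodes the inhibitor IkB-beta (log2 -0.55, adjusted p = 0.0444), were lower in gp91phox-/- than in p47phox-/-. These calls were kept in only 7 and 5 of 21 alternatives, and the sign held in all 21.

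Ratios of 2 genes within a library do not depend on the scaling of libraries. The log2 ratio of Nfkbia to Rela was 1.72, 1.92 and 2.08 in gp91phox-/- and 1.85, 1.88 and 1.73 in p47phox-/-, against 1.14, 1.34 and 1.38 in WT, so that inhibitor transcript was higher relative to the RelA transcript in all 6 knockout libraries. Against Rela, Nfkbid also lay above WT in both knockouts, and Bcl3 only in p47phox-/-. Nfkbie to Rela was 0.565 to 0.944 in p47phox-/-, below the 0.965 to 1.281 of WT. In p47phox-/- Tnfaip3 to Rela (1.396 to 1.677) and Nfkbiz to Rela (0.916 to 1.141) overlapped WT. The ratios of Nfkbie, Tnfaip3 and Nfkbiz to Rela lay above WT in gp91phox-/-. The log2 ratio of Tnfaip3 to Nfkbia was 1.00, 0.78 and 0.52 in gp91phox-/- and -0.18, -0.48 and -0.33 in p47phox-/-, against 0.12, 0.12 and 0.39 in WT. The 3 genotypes did not overlap in this ratio, with WT between the knockouts. For Nfkbia to Nfkb1 the log2 ratio was 1.23, 1.22 and 1.14 in gp91phox-/- and 0.60, 0.78 and 0.76 in p47phox-/-, against 0.11, 0.28 and -0.04 in WT. Here too no groups overlapped, and p47phox-/- lay between the others.

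Per kilobase of annotated exon, Nfkbia was the most abundant of these transcripts in every genotype, and Mir155hg the least, by their means. In WT the mean was 8959 normalized counts per kb for Nfkbia, 4223 for Nfkbie and 2782 for Nfkb2, and the libraries of these 3 genes did not overlap. From Nfkb2 down through Rel, Nfkbib, Tnfaip3, Nfkbiz, Nfkbid, Rela and Bcl3 (1875 per kb), each gene overlapped its neighbour in the WT order, though genes farther apart in it need not overlap, as with Nfkb2 (2583 to 3132) and Tnfaip3 (2222 to 2427). Relb (1328), Nfkb1 (1106) and Mir155hg (91.7) followed without overlap. In gp91phox-/- the levels of Nfkbie (6280 per kb), Nfkbiz (6265) and Tnfaip3 (5824) formed a group after Nfkbia (15565), whereas in p47phox-/- Nfkbia had 16419 per kb and Nfkbie 4212, with Nfkbiz at 3081 and Tnfaip3 at 2925.

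**Figure D3:**
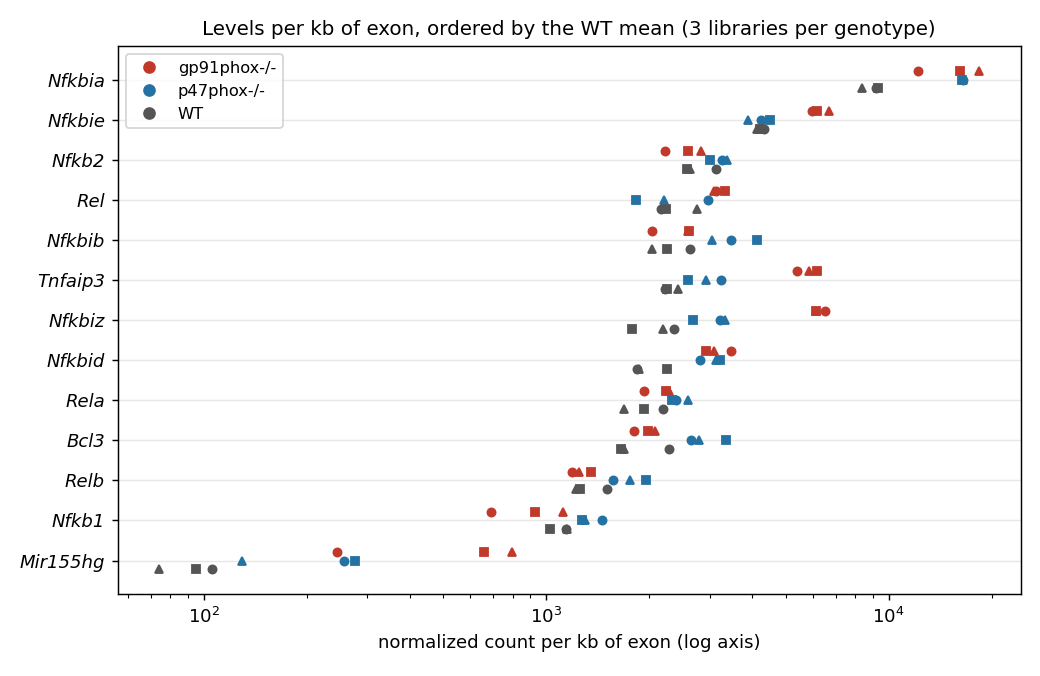
Normalized count per kb of exon (log axis) for the 10 genes with Rela, Relb and Nfkbib, ordered from top to bottom by the WT mean, with 1 point per library, colours for genotypes and marker shapes for replicates 1 (circle), 2 (square) and 3 (triangle). Tnfaip3 and Nfkbiz sit in the middle of the WT order, and their gp91phox-/- points lie beside those of Nfkbie.

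Of 21 feedback regulators outside the 10 genes, all tested, 3 were higher and 1 lower in gp91phox-/- versus WT (2.53% and 4.53% of all genes), with a median log2 fold change of 0.21, and 0 were called in p47phox-/- versus WT, with the same median. The higher genes were Birc3, which encodes the ubiquitin ligase cIAP2 (log2 0.58, adjusted p = 0.0148), Zc3h12a, the RNase Regnase-1 that cuts inflammatory mRNAs (log2 0.56, adjusted p = 0.0346), and Zfp36, which encodes the mRNA-destabilising protein tristetraprolin (log2 0.52, adjusted p = 0.0495). These calls were kept in 17, 13 and 9 of 21 alternatives in the order given. Otud7b, a deubiquitinase of the non-canonical pathway, was lower, with 176, 197 and 135 normalized counts in gp91phox-/- against 304, 466 and 483 in WT (log2 -1.29, adjusted p = 0.00707). Itch was higher in gp91phox-/- than in p47phox-/- (log2 0.80, adjusted p = 0.0279, kept in 15 of 21 alternatives), and Otud7b (log2 -1.69, adjusted p = 0.0012) and Tnip2 (log2 -0.62, adjusted p = 0.0357, kept in 8 of 21 alternatives) were lower there.

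Of 29 tested among 32 IKK subunits and adaptors upstream of NF-kB, 1 was higher and 1 lower in gp91phox-/- versus WT, a share near the 7.05% of all genes called, and 0 were called in p47phox-/- versus WT, with medians of -0.01 in both. Myd88, the adaptor of most Toll-like receptors, had 3910, 4191 and 4664 normalized counts in gp91phox-/- against 2853, 3006 and 2610 in WT (log2 0.59, adjusted p = 0.027, kept in 15 of 21 alternatives). Traf5, an adaptor of TNF-family receptors, was lower in gp91phox-/- than in p47phox-/- (log2 -0.60, adjusted p = 0.0476), a call kept in 5 of 21 alternatives. Ikbkg, Irak1 and Tab3 lie on chromosome X and were listed at 0.

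Of 17 receptors tested among 19, 2 were higher and 2 lower in gp91phox-/- versus WT (2.53% and 4.53% of all genes), with a median of 0.40, and 0 were called in p47phox-/- versus WT, with a median of -0.10. Cd40, a costimulatory receptor that feeds both NF-kB pathways, had 3529, 5945 and 4656 normalized counts in gp91phox-/- against 2371, 1805 and 2142 in WT (log2 1.14, adjusted p = 0.00326). Tlr2, a receptor for bacterial lipoproteins, had 18249, 16185 and 15869 against 9850.2, 6993 and 8728 (log2 0.99, adjusted p = 0.00251). Tnfrsf13c, the BAFF receptor of B cells, was lower (log2 -6.74, adjusted p = 1.4e-06), as was Il1r1 (log2 -1.47, adjusted p = 0.0073). Tlr4 (log2 0.83, adjusted p = 0.0215, kept in 16 of 21 alternatives) and Tlr1 (log2 0.80, adjusted p = 0.0252, kept in 15) were higher in gp91phox-/- than in p47phox-/-, and Tnfrsf13c was lower (log2 -6.89, adjusted p = 1.4e-06). Tlr7 and Tlr8, also on chromosome X, were listed at 0.

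Of 35 tested among 36 known NF-kB target genes, 17 were higher, 1 was lower and 17 were not called in gp91phox-/- versus WT (2.53% higher and 4.53% lower among all genes), with a median of 0.89. Nos2, the inducible nitric oxide synthase, had 289, 1723 and 4513 normalized counts in gp91phox-/- against 95.3, 68.3 and 88.7 in WT (log2 3.96, adjusted p = 0.00621). Il1a, an alarm cytokine, had 5788, 8903 and 13528 against 1838, 1481 and 2024 (log2 2.33, adjusted p = 0.000104), and Ptgs2, the inducible cyclooxygenase, 13127, 21185 and 30961 against 3699.9, 4751 and 4687 (log2 2.24, adjusted p = 0.000335). All 3 were lowest in gp91phox-/- replicate 1, as were Nfkbia and Mir155hg, and in that group the order of replicates for Nfkbid was different, with replicate 1 highest. Lcn2, an iron-scavenging target of IkB-zeta, was lower, with 40.04, 40.4 and 128 normalized counts in gp91phox-/- against 240.3, 1048 and 175 in WT (log2 -2.55, adjusted p = 0.0382, kept in 14 of 21 alternatives).

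In p47phox-/- versus WT, 7 of the 35 targets were higher and 3 lower (0.625% and 0.5% of all genes), with a median of 0.48. The neutrophil chemokine Cxcl1 was higher, with 14349, 17114 and 12365 normalized counts in p47phox-/- against 5761, 4975 and 4155 in WT (log2 1.56, adjusted p = 0.00756, kept in 19 of 21 alternatives). Lcn2 (log2 -4.52, adjusted p = 0.00783, kept in 19 of 21 alternatives), the acute-phase gene Saa3 (log2 -3.79, adjusted p = 0.0233, kept in 15 of 21 alternatives) and the chemokine Ccl5 (log2 -2.08, adjusted p = 0.00783, kept in 19 of 21 alternatives) were lower. In gp91phox-/- versus p47phox-/-, 10 targets were higher and 2 lower (3.97% and 5.96% of all genes), with a median of 0.36, and Nos2 (log2 5.21, adjusted p = 0.00104), Saa3 (log2 3.25, adjusted p = 0.0117), Ptgs2 (log2 2.22, adjusted p = 0.000372) and Ccl5 (log2 1.81, adjusted p = 0.0029) differed most among the called ones. The target list was chosen with earlier results known, so its counts describe the genes and are no independent evidence of direction.

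**Figure D4:**
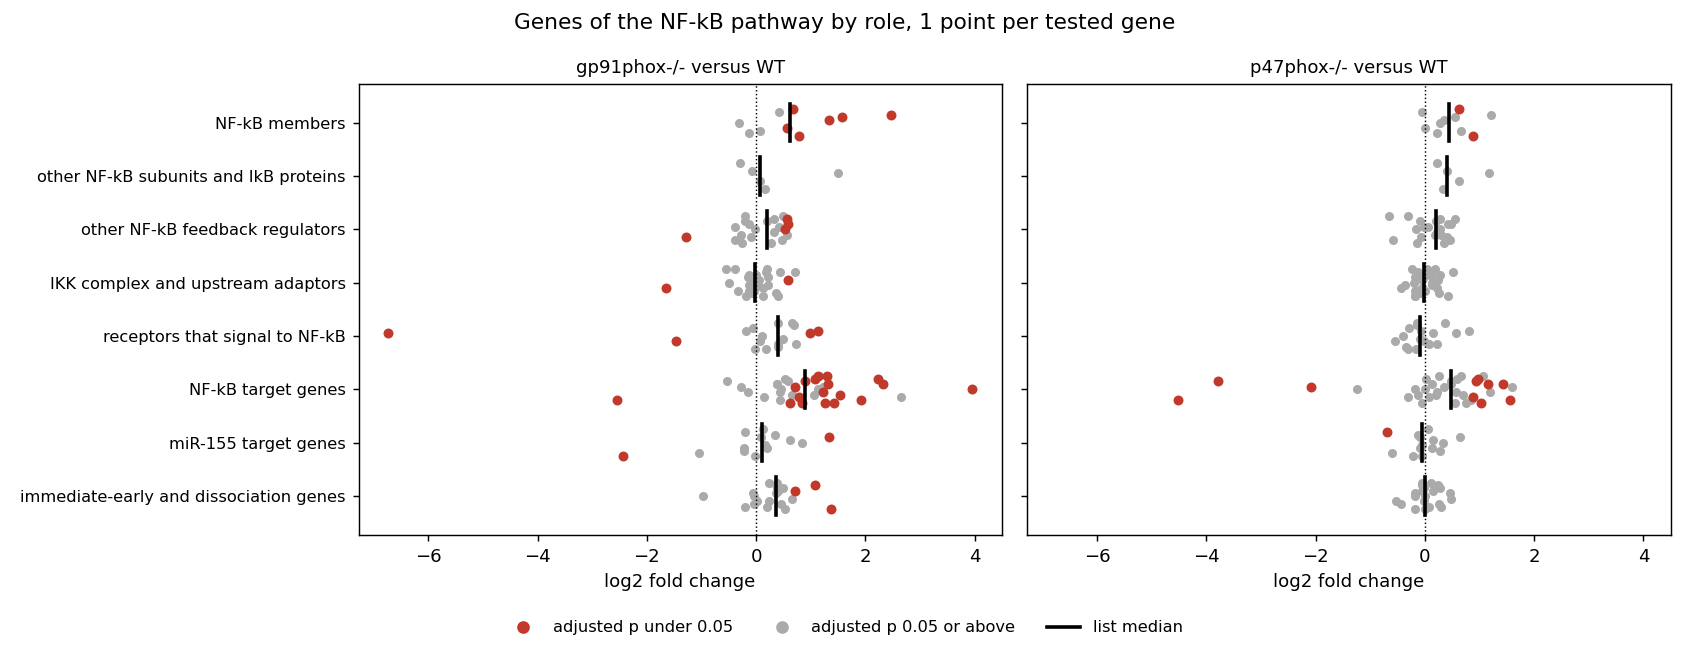
Log2 fold change (horizontal axes) of each tested gene, in rows by role in the NF-kB pathway, for gp91phox-/- versus WT and p47phox-/- versus WT, with red points for an adjusted p under 0.05, grey points for the rest and a bar at the list median. The target row lies mostly above 0 in gp91phox-/- versus WT, with a median of 0.89, while the median of the IKK complex and adaptors is at -0.01.

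Signs of other cells moved with genotype, and their part in the results for the 10 genes was not tested. Marker counts stand beside these shares of all genes. In gp91phox-/- versus WT 2.53% were higher and 4.53% lower. The shares were 0.625% and 0.5% in p47phox-/- versus WT, and 3.97% and 5.96% in gp91phox-/- versus p47phox-/-. Of 17 B and plasma cell markers, 0 were higher and 16 lower in gp91phox-/- versus WT, 0 were called in p47phox-/- versus WT, and all 17 were lower in gp91phox-/- versus p47phox-/-. Their summed level was 7538 to 11732 normalized counts in gp91phox-/- and 55030 to 78406 in p47phox-/-, against 56004 to 137551 in WT, where replicate 2 was the highest. Cd79a, part of the B cell receptor, was at 5.46, 10.3 and 15.2 normalized counts in gp91phox-/- against 2892, 5299 and 2729 in WT, and none of the 17 was at 0 in all libraries. In bulk RNA fewer cells of a type and less RNA per cell cannot be told apart. Tnfrsf13c and Ets1, which fell in gp91phox-/-, are genes of lymphocytes.

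Of 12 conventional dendritic cell markers, 4 were lower in gp91phox-/- versus WT, 1 was higher in p47phox-/- versus WT, and 6 were lower in gp91phox-/- versus p47phox-/-. They summed to 3402 to 4553 normalized counts in gp91phox-/- and 9046 to 10760.4 in p47phox-/-, against 6462 to 10581 in WT. Of 13 fibroblast and smooth muscle markers, 2 were higher in gp91phox-/- and 3 in p47phox-/- versus WT, with sums of 10678.5 to 12829 in gp91phox-/- and 12898 to 19887 in p47phox-/-, against 7570.2 to 10076 in WT. The summed level of 13 macrophage markers, to which Cd74 gave the most, overlapped between genotypes, at 1460326 to 1822794 in gp91phox-/- and 1315015 to 1950268 in p47phox-/-, against 1312763 to 1741062 in WT. Of the 13, 1 was higher in gp91phox-/- versus WT, the Fc receptor gene Fcgr1 (7696, 8157 and 8448 normalized counts in gp91phox-/- against 5717, 4580 and 5240.3 in WT, log2 0.65, adjusted p = 0.0251), and 0 were called in p47phox-/- versus WT. In gp91phox-/- versus p47phox-/-, 3 were higher, Cx3cr1 (log2 3.74, adjusted p = 0.00164), Itgam (log2 0.79, adjusted p = 0.0363) and Fcgr1 (log2 0.62, adjusted p = 0.0264), and 1 was lower, Cd68 (log2 -0.46, adjusted p = 0.0462), without overlap. Cx3cr1, the fractalkine receptor of mature gut macrophages, had 24878, 17832 and 14746 normalized counts in gp91phox-/- and 598, 5056 and 899 in p47phox-/-, against 4995, 4059.8 and 5542 in WT. The part of these differences in the results for the 10 genes was not tested. Of 9 T cell and innate lymphoid markers tested, 1 was lower in gp91phox-/- and 0 in p47phox-/- versus WT. Of 5 neutrophil markers tested and 10 epithelial markers, 0 were called against WT. Of 7 monocyte markers 1 was lower in gp91phox-/- and 1 higher in p47phox-/-, each versus WT. In gp91phox-/- versus p47phox-/-, 3 fibroblast and smooth muscle and 2 T cell and innate lymphoid markers were lower. There 2 epithelial markers were higher, 1 monocyte marker was higher and 1 lower, and 0 neutrophil markers were called. The epithelial medians were 0.58 in gp91phox-/- versus WT, -0.44 in p47phox-/- versus WT and 0.98 in gp91phox-/- versus p47phox-/-.

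Immediate-early and heat-shock genes can rise while tissue is dissociated, and their part was not tested. Of 21, 3 were higher in gp91phox-/- versus WT, beside 2.53% of all genes (Btg2, log2 1.36, adjusted p = 0.000161, Egr2, log2 1.08, adjusted p = 0.00187, and Fosb, log2 0.70, adjusted p = 0.0473, a call kept in 9 of 21 alternatives), 0 were called in p47phox-/- versus WT, and 4 were higher in gp91phox-/- versus p47phox-/-, beside 3.97% of all genes. Their sum was 916393 (replicate 1), 607340 and 498703 normalized counts in gp91phox-/- and 404595 (replicate 1), 584548 and 595790 in p47phox-/-, against 621005, 374849 and 617759 in WT. The groups overlapped in this sum. The list median log2 fold change was 0.37 in gp91phox-/- versus WT, with 16 of the 21 genes above 0. The median was -0.01 in p47phox-/- versus WT (10 above 0) and 0.41 in gp91phox-/- versus p47phox-/- (17 above 0). Gp91phox-/- replicate 1, by far the highest in the sum, was the lowest of its group for Nfkbia, Nfkbie, Tnfaip3 and Mir155hg and the highest for Nfkbiz and Nfkbid. Without it all 6 calls in gp91phox-/- versus WT remained. That fit does not test the part of the immediate-early genes, as Btg2, Egr2 and Fosb lay above every WT value in each gp91phox-/- library.

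**Figure D5:**
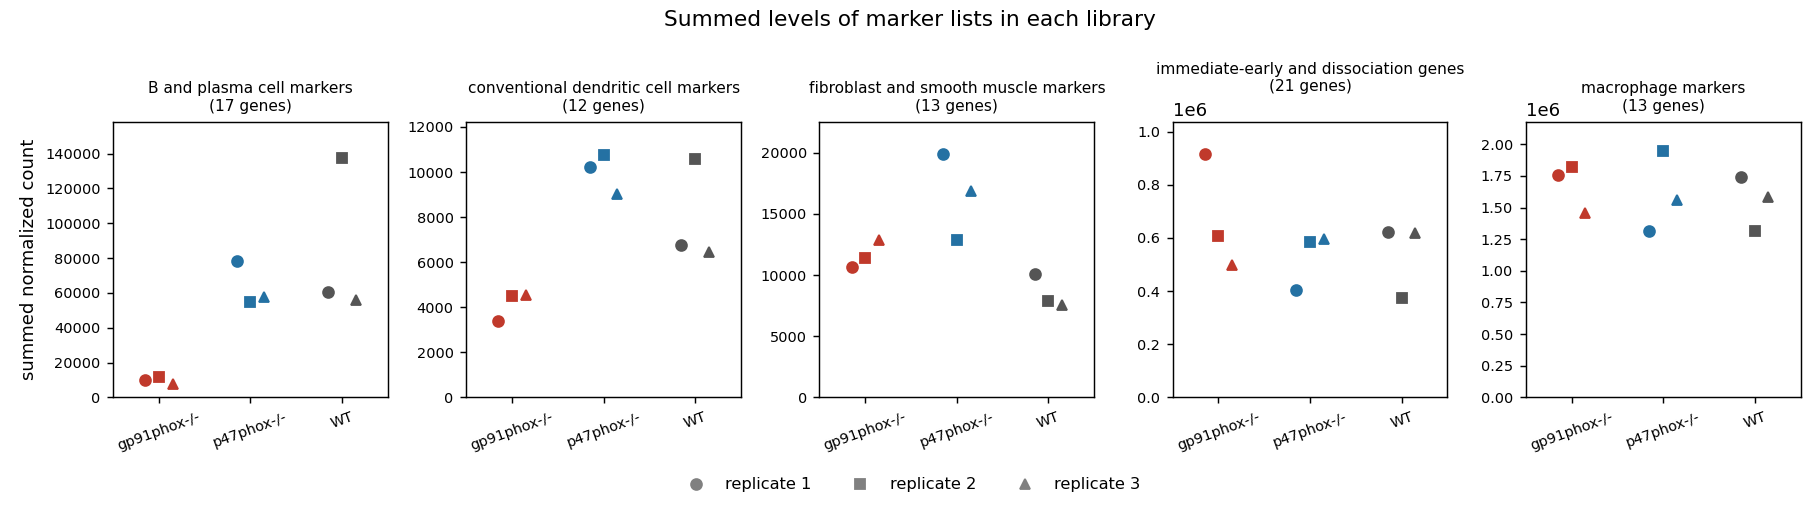
Summed normalized counts (vertical axes, from 0) of marker lists in each library, grouped by genotype, with the marker shape giving the replicate. The B and plasma cell sum is at 7538 to 11732 in gp91phox-/- and at 55030 or more in every other library, and the macrophage sums overlap.

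As a single profile, the mean of the standardised log2 values of the 10 genes was 0.07, 0.56 and 0.81 in gp91phox-/- and 0.41, 0.16 and 0.17 in p47phox-/-, against -0.56, -0.85 and -0.78 in WT. This profile pools genes that did not all move together. Over the 9 libraries Tnfaip3 correlated at 0.974 with Nfkbiz, but Nfkb1 at -0.614 with Nfkbie and Bcl3 at -0.522 with Rel. Among 14394 other tested genes, those most like this profile over the 9 libraries were Lilrb4a (Pearson r = 0.978), an inhibitory receptor of myeloid cells, the anti-inflammatory cytokine Il10 (r = 0.972), the signalling adaptor Lcp2 (r = 0.971), Zfp719 (r = 0.970) and the transcription factor Klf10 (r = 0.968). These correlations describe libraries that share 3 genotypes and are given without a test. Il10 averaged 11382 normalized counts in gp91phox-/- and 9511 in p47phox-/-, against 4411 in WT, and Lilrb4a averaged 30701 and 28973, against 19048 in WT.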

How the data were processed

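RNA of 9 libraries was extracted with the RNeasy Micro kit and sequenced paired-end on a NovaSeq, per the labels' protocols. Per the same protocols and the submitters' processing notes, the authors used bcl2fastq 2.19, Cutadapt, STAR 2.5.2b with mm10, featureCounts and DESeq2. The annotation and the strand setting are not given in the sources used here. The authors deposited normalized counts, that is a signal of reads divided by 1 size factor per library (1.05 to 1.66 as read from the values). Multiplying back gave whole reads for 100% of values within a tolerance of 0.01, or 31141107 to 52797368 reads per library. The labels do not say whether libraries came from separate animals, so p-values reflect only the spread among these libraries, which may be technical.

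The 14404 genes that reached 10 normalized counts in 3 or more libraries were tested as log2(normalized count + 1) in limma 3.58.1 (R 4.3.3) in 1 fit of the 3 genotypes, with a mean-variance trend and Benjamini-Hochberg adjustment over all genes, and called under 0.05. Intervals are 95% intervals from this fit. The steps were tested on simulated data. Results were recomputed under 21 alternatives: pseudocounts, filters, scalings, a fit of the 2 groups alone, a replicate block, no trend, each library left out, p47phox-/- replicates 2 and 3 left out, and edgeR 4.0.16 and DESeq2 1.42.0 on the recovered reads. Exon lengths and gene coordinates are from GENCODE vM21 (GRCm38, the build of mm10), and promoter and microRNA sequences from RefSeq (GRCm38.p6). Nfkbiz and Nfkb1 had no entry in the promoter table.

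The members and the other gene lists were chosen with earlier results of these data known. All 10 members, Rela and Relb are named. From each other list up to 4 called genes with the greatest fold change per comparison are named, with up to 3 markers per cell type and the 5 genes most like the members' mean profile. Nfkbib, Tnfrsf13c in its role beside B cell markers, and the chromosome X genes are named outside this rule, with their values known. Some results are not reported here, though counts of genes include them.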

Additional observations from a re-analysis of the deposited data

Results flagged for a closer look

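Of the 10 genes, 5 were called by limma's test of gp91phox-/- versus p47phox-/- in the fit of all genes. Beside them, 9.93% of all genes were called, 3.97% higher and 5.96% lower. This contrast is the difference between the 2 effects against the same WT libraries. Tnfaip3 (log2 1.00), Nfkbiz (log2 1.03) and Nfkbie (log2 0.58) were higher in gp91phox-/- than in p47phox-/-. Nfkb1 (log2 -0.58) and Bcl3 (log2 -0.58) were lower in gp91phox-/- than in p47phox-/-, calls kept in only 5 and 11 of 21 alternatives. Both lost the threshold under TMM scaling, the replicate block, no mean-variance trend and edgeR. In the same contrast all 17 B and plasma cell markers were lower in gp91phox-/-, and their part in these differences was not tested.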

How the results depend on the processing

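In gp91phox-/- versus WT, 6 of the 10 genes were called under every alternative except without gp91phox-/- replicate 3 (5 of 10), while all genes called numbered 596 with no mean-variance trend, 1771 with DESeq2 and 520 to 1543 with 1 library left out. In p47phox-/- versus WT, members called numbered 1 with no filter, with only the 2 groups compared, with the replicate block and with edgeR, 0 with no trend or without p47phox-/- replicates 2 and 3, 5 with DESeq2 and 0 to 2 with 1 library left out. All genes called there numbered 101 with only the 2 groups, 52 with no trend, 16 without p47phox-/- replicates 2 and 3, 678 with DESeq2 and 47 to 235 with 1 library left out. In gp91phox-/- versus p47phox-/-, members called numbered 3 with TMM scaling, the replicate block or no trend, 2 without p47phox-/- replicates 2 and 3, and 3 to 5 with 1 library left out, and all genes 898 with no trend, 441 without those replicates, 2276 with DESeq2 and 761 to 1661 with 1 library left out. Leaving out libraries also lowers the number of samples, and otherwise the cause was not tested.

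The sign turned in 7 instances of gene and comparison, none of them called in that comparison. With 1 library left out, log2 fold changes ranged from -0.0075 to 0.22 for Bcl3, -0.020 to 0.19 for Nfkbib and -0.12 to 0.030 for Relb in gp91phox-/- versus WT, from -0.058 to 0.051 for Nfkbie and -0.24 to 0.11 for Rel in p47phox-/- versus WT, and from -0.23 to 0.070 for Nfkbia and -0.018 to 0.11 for Nfkbid in gp91phox-/- versus p47phox-/-. Without p47phox-/- replicates 2 and 3, p47phox-/- versus WT gave 0.0057 for Nfkbie and 0.32 for Rel.

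Same-numbered libraries correlated at -0.04 to 0.076 in their deviations from group means, so no broad effect shared by number was seen. With 3 libraries per genotype, a weak shared effect, or one limited to few genes, could be missed there. The replicate block gave 877, 127 and 1238 genes for gp91phox-/- versus WT, p47phox-/- versus WT and gp91phox-/- versus p47phox-/-. No scaling moved the median of all genes by more than 0.0885. With 3 libraries per genotype and the lowest member, Mir155hg, at 106 to 152 normalized counts in WT, small differences were not detectable.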
